A study of Mus musculus with 8 samples.

Results

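The regulators of axial progenitors and nascent mesoderm described here are 7 genes, T, Sox2, Nkx1-2, Evx1, Mixl1, Tbx6 and Msgn1, taken as a named group, with earlier results of these data known. They are 7 of 15489 genes tested, and 9 of the 41174 non-control probes of the array carry their names. All 7 had a probe that passed the filter on dim probes. The arrays compared posterior tissue of Cdx2 null mutant and wild type mouse embryos, both of the strain C57Bl6J/CBA, at 4/5 somites and again at 7/8 somites. The tissue was cut out between the youngest somite border and the allantois base, and 20 embryos of a genotype and stage were combined. There were thus 4 RNA pools, and each stage was measured on 4 arrays that carried its null pool in one dye and its wild type pool in the other. Arrays 1 and 3 of each stage had the null pool in Cy3 and arrays 2 and 4 had it in Cy5. The labels used here do not say how null embryos were brought past implantation, a step at which Cdx2 is needed in the trophectoderm.

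The posterior end of an embryo that is still making somites holds the primitive streak and the progenitors beside it, from which both spinal cord and paraxial mesoderm are laid down. Progenitors with both fates hold T and Sox2 together. Cells that go on to mesoderm keep T and take up Tbx6 and Msgn1, whereas cells that go on to the neural plate keep Sox2. Cdx2 is a homeodomain factor of this posterior territory, and the comparison asks how the transcripts of the tissue differ where it is missing.

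Every ratio below is the log2 of null over wild type, so that a negative value means less transcript in the null pool, and every SD is that of 4 arrays. Cdx2 itself had ratios of -1.23 at 4/5 and -1.55 at 7/8 somites and lay between -1.61 and -1.10 on all 8 arrays. The sources used here do not say whether its probe lies in the deleted part of the gene. The share of probes well above background followed the dye. It was 46.5% to 50.7% for pools in Cy3 and 55.2% to 58.9% for pools in Cy5, in either genotype. In bulk tissue, fewer cells of a type and less RNA per cell cannot be told apart. Of 6 markers of anterior neural tissue, Otx2, Six3, Hesx1, En1 and Egr2 had no probe that passed the filter, in tissue labelled as posterior. The remaining marker, Pax2, passed it, with ratios of -0.03 at 4/5 and -0.1 at 7/8 somites.

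Upstream sequences are shown for T and Msgn1, the pair of members with a wild type level that was lower and a null level that was higher at 7/8 than at 4/5 somites, each without overlap of arrays. The windows follow RefSeq (GRCm38.p6) and run over 250 bases before the annotated start. The set of windows used here held 6 of the 7 members and none for Mixl1, which RefSeq itself does list. Patterns of letters for 3 kinds of factor were searched on both strands: TTTATG, bound by Cdx factors, CTTTGAA or CTTTGAT, bound by Tcf and Lef factors of the Wnt pathway, and AGGTGT, bound by T-box factors. Capitals mark the matches, which did not overlap one another. The window of T, at chr17:8434173-8434422 on the plus strand, reads:
T: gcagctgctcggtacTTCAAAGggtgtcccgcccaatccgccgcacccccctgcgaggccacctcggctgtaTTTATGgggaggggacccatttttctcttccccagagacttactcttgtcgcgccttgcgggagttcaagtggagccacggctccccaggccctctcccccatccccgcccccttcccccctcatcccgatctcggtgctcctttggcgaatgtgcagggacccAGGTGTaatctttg
RefSeq starts its model of Msgn1 at the start codon, so the 75 bases next to it are left out, and the 175 bases before them, at chr12:11209024-11209198 on the minus strand and printed 5′ to 3′ on it, read:
Msgn1: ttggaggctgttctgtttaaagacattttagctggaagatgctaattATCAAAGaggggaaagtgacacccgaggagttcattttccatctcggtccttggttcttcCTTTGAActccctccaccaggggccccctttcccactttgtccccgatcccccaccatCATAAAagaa
The T window held 1 match to the Cdx pattern at -178 to -173 from the start, 1 to the Tcf and Lef pattern at -235 to -229, and 1 to the T-box pattern at -14 to -9. The Msgn1 window held 1 match to the Cdx pattern at -85 to -80 and 2 to the Tcf and Lef pattern, at -203 to -197 and -143 to -137. Evx1 had 1 match to the T-box pattern at -38 to -33, and the windows of Sox2, Nkx1-2 and Tbx6 held none of these patterns. Over all 32851 windows in the RefSeq table, 10.8% held the Cdx pattern, 7.48% the Tcf and Lef pattern and 11.8% the T-box pattern. A match is a run of letters and not a measured site.

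At 4/5 somites, 6 of the 7 members had less transcript in the null pool on all 4 arrays, and only Sox2 had more on all 4. Of all genes tested, 21.8% lay below 0 on all 4 arrays at that stage and 22.4% above. Msgn1, Evx1 and T were at least 1.5-fold lower, the size set for a difference within a stage (0.585 on the log2 scale, with the same sign on all 4 arrays), which 0.975% of all genes met in that direction and 1.32%, but no member, in the other. T lay near that size at -0.61, and had -0.58 with uneven backgrounds kept and -0.56 with the null in Cy5, both short of it. With the scanner's processed signals Mixl1 met it as well, at -0.82. At 7/8 somites none of the 7 met that size, whereas 1.12% of all genes did as lower and 1.49% as higher. Msgn1 alone was then below 0 on all 4 arrays (21.0% of all genes), and 4 members, Mixl1, Tbx6, Nkx1-2 and Sox2, were above 0 on all 4 (21.9%). Mixl1, Tbx6 and Nkx1-2, 3 of the 7, had thus been below 0 on all 4 arrays at the first stage and above 0 on all 4 at the second, as 2.11% of all genes had. For Nkx1-2 this holds for its brightest probe, whereas its second probe had 0.0068 on array 1 of 4/5 somites. With 1 pool per genotype, nothing within a stage was tested.

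**Figure D1:**
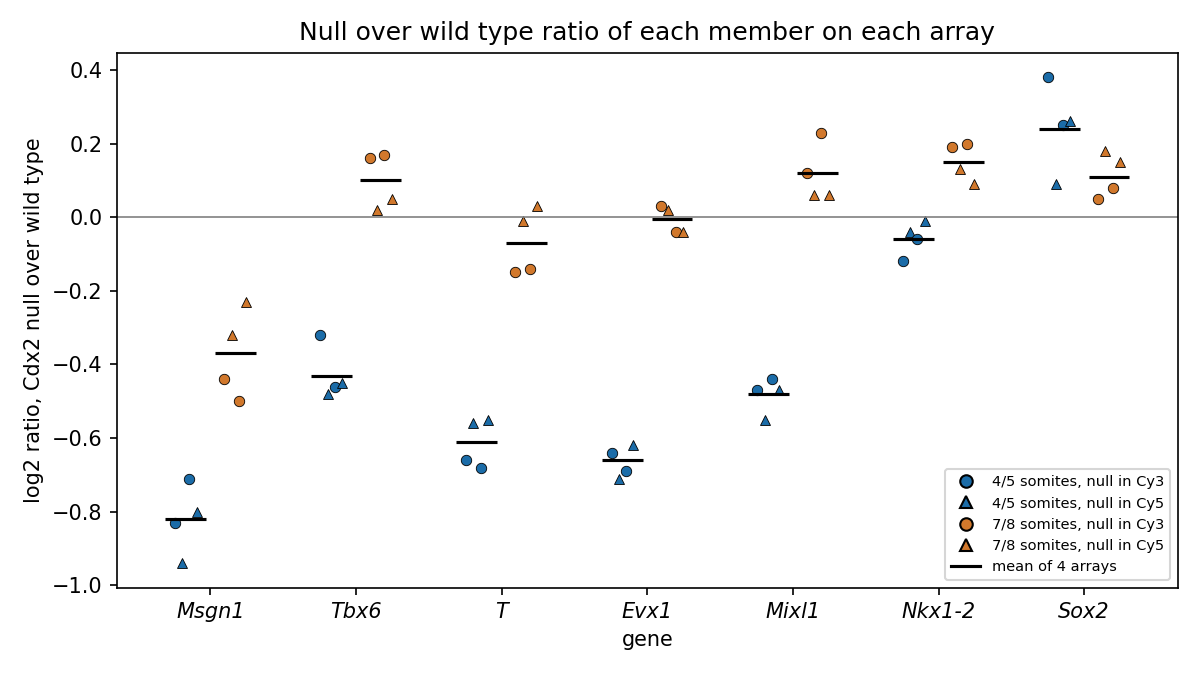
Log2 ratio of null over wild type (vertical axis) of the 7 genes on each of the 8 arrays, blue for 4/5 and orange for 7/8 somites, circles where the null pool was in Cy3 and triangles where it was in Cy5. Bars are means of 4 arrays. For every gene except Sox2 the 4 blue points lie below the 4 orange points, and only Msgn1 stays below 0 on all 8 arrays.

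Msgn1 encodes mesogenin, a basic helix-loop-helix factor of presomitic mesoderm. Its single probe lies at chr12:11215431-11215490 (mm9, minus strand) and its sequence is shown because every value of this gene rests on it:
Msgn1 probe: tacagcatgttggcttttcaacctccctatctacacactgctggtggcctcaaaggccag
At 4/5 somites its ratio was -0.83, -0.94, -0.71 and -0.80 on arrays 1 to 4, and at 7/8 somites it was -0.44, -0.32, -0.50 and -0.23. All 8 arrays were below 0, as for 8.47% of all genes, and the arrays of the stages did not overlap. The means were -0.82 ± 0.09 (SD, n = 4 arrays), which leaves 56.6% of the wild type level, and -0.37 ± 0.12, which leaves 77.2%.

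In the wild type pool the log2 level of Msgn1 was 9.0, 8.95, 8.93 and 9.04 at 4/5 and 8.71, 8.76, 8.89 and 8.67 at 7/8 somites. In the null pool it was 8.17, 8.01, 8.22 and 8.24 and then 8.27, 8.43, 8.39 and 8.43. The wild type level was thus lower at the later stage and the null level higher, each without overlap of arrays. The null pool at 7/8 somites still lay below every wild type value of either stage.

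Tbx6, a T-box factor that sets mesoderm apart from neural fate and acts with Msgn1 in the presomitic mesoderm, has its probe at chr7:133928999-133929058 (mm9, plus strand). Its ratio was -0.32, -0.48, -0.46 and -0.45 at 4/5 somites and 0.16, 0.02, 0.17 and 0.05 at 7/8 somites. All 4 arrays were below 0 at the first stage and all 4 above 0 at the second. The means were -0.43 ± 0.07, or 74.4% of wild type, and 0.10 ± 0.08.

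The null level of Tbx6 ran from 12.73 to 12.86 at 4/5 and from 12.97 to 13.18 at 7/8 somites, without overlap. Its wild type level ran from 13.12 to 13.31 and from 12.80 to 13.16, and here 1 array of the later stage, at 13.16, reached into the range of the earlier one. The ratio of Msgn1 minus that of Tbx6 was -0.51, -0.46, -0.25 and -0.36 on the arrays of 4/5 somites and -0.60, -0.35, -0.66 and -0.28 at 7/8 somites. The gap, -0.40 ± 0.12 and then -0.47 ± 0.19, had the same sign on all 8 arrays. It is 1 of 5 pairs examined, chosen after the values were seen, and was not tested.

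T (brachyury), the T-box factor of the primitive streak and notochord, is read by a single probe at chr17:8634870-8634929 (mm9, plus strand) that is printed at 10 spots on each array. RefSeq places the locus LOC115486424 over T, and signal of the one cannot be told from that of the other here. The ratio of T was -0.66, -0.56, -0.68 and -0.55 at 4/5 somites, and -0.15, -0.01, -0.14 and 0.03 at 7/8 somites. The arrays of the stages did not overlap. The means were -0.61 ± 0.07, or 65.3% of wild type, and -0.07 ± 0.09, or 95.4%.

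The 10 spots give the spread of readings within a single array, and not the differences between arrays or dye orders. All 40 spots of 4/5 somites were below 0, from -0.85 to -0.38, and the SD among the spots of an array was 0.03 to 0.15. At 7/8 somites 27 of 40 spots were below 0, in a range of -0.23 to 0.08 with an SD of 0.03 to 0.08. There the dye orders differed. All 10 spots were below 0 on both arrays with the null pool in Cy3, whereas with Cy5 5 spots were below 0 on array 2 and 2 on array 4. At 4/5 somites the means by dye were -0.67 and -0.56.

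**Figure D2:**
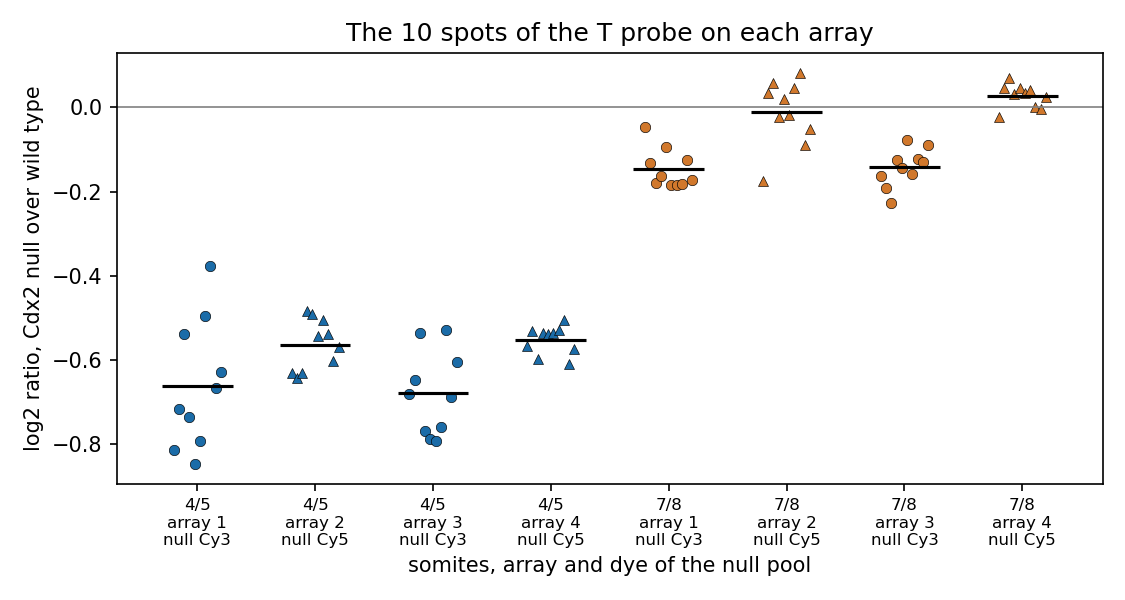
Log2 ratio of null over wild type (vertical axis) at each of the 10 spots of the T probe on each array, named below by stage, array and dye of the null pool. Bars are the means of an array. All 40 spots of 4/5 somites lie between -0.85 and -0.38, and all 40 spots of 7/8 somites lie above them, between -0.23 and 0.08.

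The log2 level of T in the wild type pool was 11.42, 11.36, 11.53 and 11.46 at 4/5 and 11.19, 11.15, 11.25 and 11.15 at 7/8 somites. In the null pool it was 10.76, 10.80, 10.85 and 10.90 and then 11.05, 11.14, 11.10 and 11.18. The later minus the earlier stage was -0.26 in the wild type and 0.29 in the null, neither with overlap, and the ranges of the genotypes then met at 11.15 to 11.18. T and Msgn1 were the only 2 of the 7 members with a wild type level that was lower and a null level that was higher at the later stage without overlap, a pattern held by 0.303% of all genes.

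Evx1, an even-skipped homeodomain factor of the posterior streak, has its probe at chr6:52267893-52267952 (mm9, plus strand). RefSeq places the gene next to Hoxa13 and the noncoding RNA Evx1os over it. Its ratio was -0.64, -0.71, -0.69 and -0.62 at 4/5 somites and 0.03, 0.02, -0.04 and -0.04 at 7/8 somites. The arrays of the earlier stage stood well apart from those of the later one, which straddled 0. The means were -0.66 ± 0.04, or 63.1% of wild type, and -0.0046 ± 0.04, or 99.7%.

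The null level of Evx1 was 9.59, 9.46, 9.73 and 9.69 at 4/5 and 10.19, 10.11, 10.29 and 10.12 at 7/8 somites. In the wild type it was 10.22, 10.16, 10.42 and 10.32 and then 10.16, 10.09, 10.32 and 10.16. Nearly all of the difference between the stages thus lay in the null pool, higher by 0.56, whereas the wild type arrays of the stages overlapped. The ratios of Evx1 and T overlapped, with a mean gap (Evx1 minus T) of -0.05 at 4/5 and 0.06 at 7/8 somites and both signs among the arrays of each stage.

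Mixl1, a paired-like homeodomain factor of the primitive streak and of early mesendoderm, has its probe at chr1:182624310-182624369 (mm9, minus strand). The ratio was -0.47, -0.55, -0.44 and -0.47 at 4/5 and 0.12, 0.06, 0.23 and 0.06 at 7/8 somites. As for Tbx6, all 4 arrays of 4/5 somites lay below 0 and all 4 arrays of 7/8 somites above 0. The means were -0.48 ± 0.05, or 71.7% of wild type, and 0.12 ± 0.08.

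Wild type levels of Mixl1 ran from 7.79 to 7.99 and from 7.63 to 7.83 and overlapped. Null levels ran from 7.24 to 7.55 and then from 7.86 to 7.90, a mean of 0.50 higher at 7/8 somites. Its ratio lay above that of T on all 8 arrays, by 0.13 and 0.19 on average. The gap was 0.19, 0.01, 0.24 and 0.08 at 4/5 and 0.27, 0.07, 0.38 and 0.04 at 7/8 somites. It thus followed the dye and was near 0 on several arrays with the null pool in Cy5. This pair was also chosen after its values were seen and was not tested.

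Nkx1-2, a homeodomain factor of the node-streak border and of the preneural tube that is used to mark axial progenitors, is the only member with several probes, 3 of them, on the minus strand of chromosome 7. The brightest, at chr7:139787123-139787182 (mm9), gave ratios of -0.12, -0.04, -0.06 and -0.01 at 4/5 and 0.19, 0.13, 0.20 and 0.09 at 7/8 somites. These small values lay on opposite sides of 0, with means of -0.06 ± 0.05 and 0.15 ± 0.05. The second probe, at chr7:139788504-139788563, gave 0.0068, -0.51, -0.09 and -0.39 and then 0.56, 0.16, 0.41 and 0.14. Its values followed the dye, with means at 4/5 somites of -0.04 for Cy3 and -0.45 for Cy5. The third covers 60 bases over a genomic span of 1649, and so crosses a splice junction. It was well above background on 1 of 4 arrays in the null and 0 of 4 in the wild type at 4/5 somites, and on 2 and 1 of 4 at 7/8 somites, and did not pass the filter.

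The level of Nkx1-2 by its brightest probe was lower at 7/8 somites in both genotypes. In the wild type it was 10.64 to 10.83 at 4/5 and 10.11 to 10.24 at 7/8 somites. In the null it was 10.58 to 10.82 and 10.26 to 10.38. Neither genotype overlapped between stages, and the mean difference was -0.56 in wild type and -0.35 in null. The second probe had a mean difference of -0.63 in the wild type, without overlap, but its null arrays of the stages overlapped, with a mean difference of -0.07, so the probes disagree about the null.

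Sox2, the SRY-box factor of neural progenitors, has its probe at chr3:34550773-34550832 (mm9, plus strand), and RefSeq places the noncoding RNA Sox2ot over the gene. Its ratio was 0.38, 0.09, 0.25 and 0.26 at 4/5 and 0.05, 0.18, 0.08 and 0.15 at 7/8 somites. All 8 arrays were above 0, as for 11.1% of all genes, and the stages overlapped. The means were 0.24 ± 0.12 and 0.11 ± 0.06.

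The log2 level of Sox2 was 8.91 to 9.05 at 4/5 and 9.31 to 9.49 at 7/8 somites in the wild type, and 9.10 to 9.31 and then 9.43 to 9.57 in the null. It was the only member with a level that was higher at the later stage in both genotypes without overlap. The ratio of T over that of Sox2, taken on each array, was -1.04, -0.65, -0.93 and -0.82 at 4/5 and -0.19, -0.19, -0.22 and -0.12 at 7/8 somites. T was therefore low relative to Sox2 in the null on each of the 8 arrays, with means of -0.86 ± 0.17 and then -0.18 ± 0.04. This pair, too, was chosen after its values were seen.

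**Figure D3:**
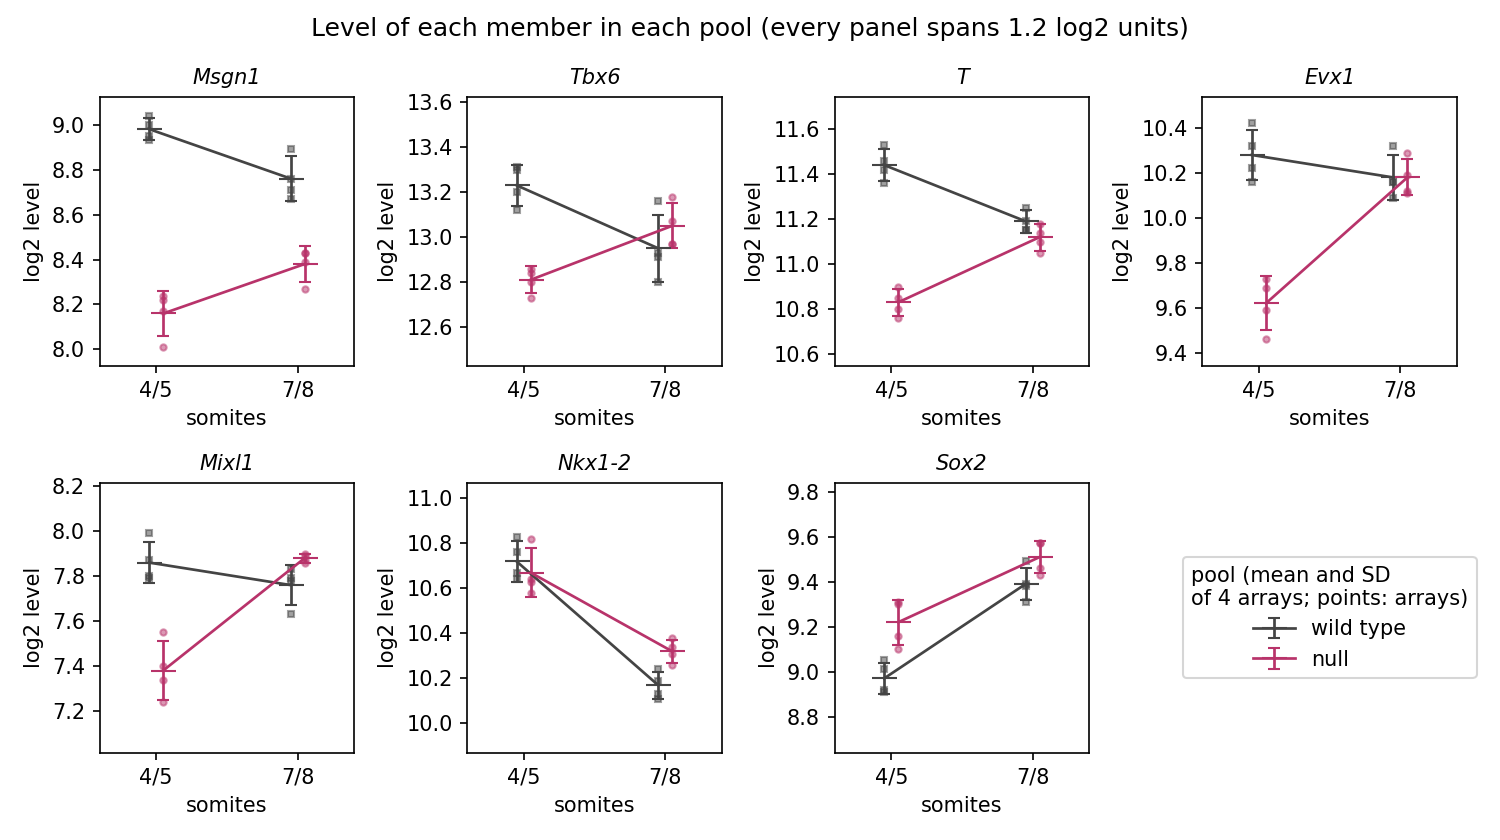
Log2 level (vertical axis, loess and between-array normalized brightness) of the brightest probe of each gene in the wild type (grey squares) and null (red circles) pools at each stage. Points are arrays, and bars are the mean and SD of 4 arrays. The null level is higher at 7/8 somites for 6 genes, whereas that of Nkx1-2 is lower. Levels of different genes come from different probes and are not compared.

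Across the 7 members, the ratio was higher at 7/8 than at 4/5 somites without overlap in 6, against 9.87% of all genes, and lower without overlap in none, against 8.74%. The difference reached 1.5-fold for Evx1 (0.66) and Mixl1 (0.60), against 0.594% of all genes. Both lay near that size. Mixl1 had 0.46 without background subtraction, 0.48 with uneven backgrounds kept, 0.57 with the null in Cy5, 0.58 without array 2 of 4/5 and 0.56 without array 3 of 7/8 somites, all under it, and 0.97 with the scanner's processed signals. Evx1 had 0.58 with uneven backgrounds kept. With the processing used throughout, the difference was 0.55 for T, 0.53 for Tbx6, 0.45 for Msgn1 and 0.21 for Nkx1-2, and -0.13 for Sox2. The value of Nkx1-2 is that of its brightest probe, whereas its second probe had 0.56, also without overlap. With each array centred on its median in place of loess, 1 member was free of overlap and 3 were below 0 on all 4 arrays of 4/5 somites, since the dyes then stood far apart. T, for example, then had means of -1.17 for Cy3 and -0.03 for Cy5 at that stage.

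By genotype, the null level was higher at 7/8 somites without overlap in 6 of the 7 (11.0% of all genes) and lower in 1 (9.97%), Nkx1-2. The wild type level was lower in 3, T, Nkx1-2 and Msgn1 (10.2% of all genes), and higher in Sox2 (9.17%). No member reached 1.5-fold between the stages in either genotype by the probe used for it, as 1.5% of all genes did in the wild type and 1.83% in the null. The ratio and both levels come from the same arrays, so these counts are one set of readings seen from different sides.

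Ordered by ratio at 4/5 somites, the members ran Msgn1, Evx1, T, Mixl1, Tbx6, Nkx1-2 and Sox2. Evx1 overlapped with T and Mixl1 with Tbx6. Msgn1 and Evx1 met at -0.71, and T and Mixl1 met at -0.55, to the digits given here, so their places in the order are not clearly apart. Tbx6, Nkx1-2 and Sox2 did not overlap with one another. At 7/8 somites Msgn1 alone stood apart. The other 6 followed as T, Evx1, Tbx6, Sox2, Mixl1 and Nkx1-2, each overlapping with the next.

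The only separate pools of the series are those of the 2 stages, so a test was possible only over both, with limma on 1 mean per stage and Benjamini-Hochberg adjustment over all 15489 genes. Msgn1, T and Evx1 fell in the null, 3 of 7 members, and none rose. Of all genes tested, 11.1% were called, 4.54% as lower and 6.55% as higher. The ratio of Msgn1 over both stages was -0.60 (SE 0.10, limma adjusted p = 0.000113), with 8 of 8 arrays below 0. For T it was -0.34 (SE 0.10, limma adjusted p = 0.0298), with 7 of 8 arrays below 0, and for Evx1 -0.33 (SE 0.11, limma adjusted p = 0.0491), with 6 of 8. The p-values rest on a spread between 2 stage pools that limma takes almost wholly from the other genes (prior df 22.13 against 1 df of the gene's own). From the gene's own pair of stage values alone, the SE would be 0.22 for Msgn1, 0.27 for T and 0.33 for Evx1, and for T and Evx1 nearly all of the difference lay at 4/5 somites.

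Sox2 had 0.18 over both stages (SE 0.09, limma adjusted p = 0.219), Mixl1 -0.18 (SE 0.11, 0.337), Tbx6 -0.16 (SE 0.10, 0.377) and Nkx1-2 0.05 (SE 0.09, 0.84), none of which passed. The calls of T and Evx1 were narrow. Leaving out any 1 of the 8 arrays other than array 1 of 4/5 somites ended both, with limma adjusted p-values of 0.0863 to 0.151 for T and of 0.0951 to 0.224 for Evx1, whereas Msgn1 passed each time. The call of Msgn1 was lost without background subtraction (-0.51, limma adjusted p = 0.0702), with median centring (-0.54, 0.124) and with no filter on dim probes (-0.60, 0.0675). On slide 1 alone, which held arrays 1 and 2 of both stages, the limma adjusted p was 0.0591 for T, 0.125 for Evx1 and 0.000743 for Msgn1. On slide 2 it was 0.011, 0.00817 and 1e-06, and the ratios themselves were -0.35 and -0.34 for T, -0.32 and -0.35 for Evx1 and -0.63 and -0.56 for Msgn1. With slide as a replicate block on the 4 dye swap pairs, where the spread is technical, all members except Nkx1-2 passed, 5 as lower and Sox2 as higher.

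3 lists of genes that act beside the members were chosen with earlier results of these data known. Of 34 other streak and axial progenitor genes, 30 were measured. Over both stages 2 of them rose and 8 fell (limma, adjusted p at most 0.05), against 6.55% and 4.54% of all genes. Their median ratio was -0.17 at 4/5 and 0.13 at 7/8 somites, against -0.00045 and -0.0046 over all genes. For 14 of the 30 the ratio was higher at 7/8 somites without overlap, against 9.87% of all genes. Epha1, an ephrin receptor of the streak, rose (0.52, SE 0.12), as did Nodal, the ligand that patterns the streak (0.36, SE 0.11). Nearly all of both differences lay at 7/8 somites, with 0.13 and then 0.90 for Epha1 and 0.04 and then 0.69 for Nodal. The genes that fell most were Greb1 (-1.05, SE 0.09), Cyp26a1, which breaks down retinoic acid in the tail bud (-0.82, SE 0.09), and Cdx4, a homologue of Cdx2 (-0.74, SE 0.09).

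Of 33 presomitic and nascent mesoderm genes other than Tbx6 and Msgn1, 28 were measured. Among these 12 rose and 6 fell, against 6.55% and 4.54% of all genes. Their median ratio was 0.13 at 4/5 and 0.17 at 7/8 somites. Aldh1a2, which makes retinoic acid in the somites, rose by 1.06 (SE 0.09). So did Cer1, a secreted antagonist present in the newest somites, by 0.95 (SE 0.15), and Meox1, a homeodomain factor of formed somites, by 0.92 (SE 0.11). Those that fell were led by Dusp4 (-1.07, SE 0.09) and Etv4 (-0.66, SE 0.12), both induced by FGF signals, and by Wnt5b, a Wnt ligand (-0.66, SE 0.09). Other FGF-induced genes of the list did not move with these: Dusp6 rose by 0.44 (SE 0.09) and Spry2 by 0.28 (SE 0.09), and Etv5 had 0.16 (limma adjusted p = 0.336). Dusp6, Spry2 and Etv5 were named after their values were seen. By stage, Cer1 had 1.53 at 4/5 and 0.37 at 7/8 somites, and Etv4 had -1.07 and then -0.26. For 8 of the 28 the ratio was higher at 7/8 somites without overlap, against 9.87% of all genes.

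Of 20 neural plate genes, the neighbours of Sox2, 13 were measured, with medians of -0.04 and -0.05. Among these 4 rose and 3 fell, against 6.55% and 4.54% of all genes. For 2 of the 13 the ratio was higher at 7/8 somites without overlap, against 9.87% of all genes. Zic1, a zinc finger factor of the dorsal neural plate, rose by 0.79 (SE 0.09), and the homeodomain factors Nkx6-1 and Nkx6-2 of the ventral neural tube rose by 0.56 (SE 0.09) and 0.38 (SE 0.09). Crabp1, which binds retinoic acid (-0.63, SE 0.08), Ncam1, a neural adhesion molecule (-0.54, SE 0.09), and Hes5, a Notch target (-0.28, SE 0.09), fell. By stage, Nkx6-2 had 0.18 at 4/5 and 0.58 at 7/8 somites, and Hes5 had -0.43 and then -0.13.

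**Figure D4:**
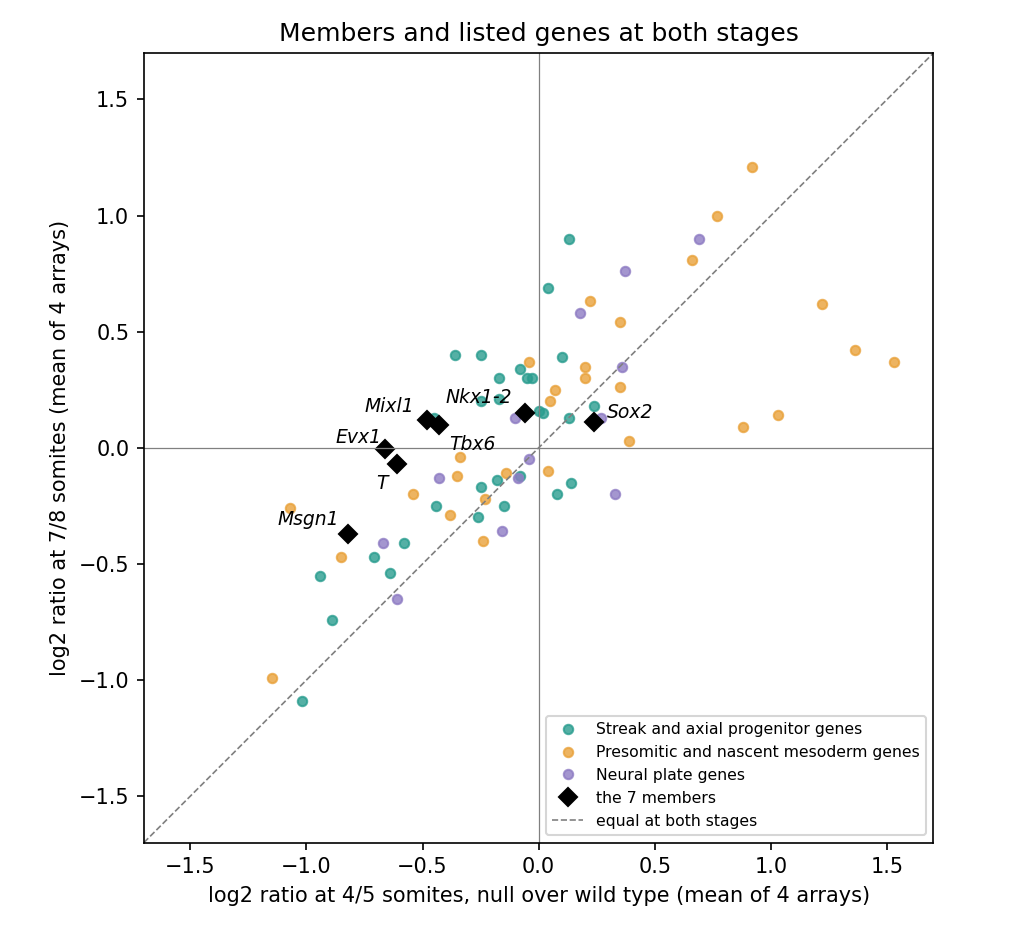
Mean log2 ratio of null over wild type at 4/5 somites (horizontal axis) and at 7/8 somites (vertical axis). Black diamonds are the 7 genes and coloured points the measured genes of the 3 lists, and on the dashed line both stages are equal. Msgn1, T, Evx1, Mixl1, Tbx6 and Nkx1-2 lie above the line and Sox2 lies below it.

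The genes closest to T over the 8 arrays, by root mean square distance of log2 ratios among 12945 named genes, were Ago2 (0.066), Bhlha9 (0.082) and Cpsf2 (0.086). Closest to Evx1 were Msx1 (0.083), Ica1l (0.084) and Gtpbp4 (0.087), and Msx1, a homeodomain factor, had -0.69 at 4/5 and 0.09 at 7/8 somites. Closest to Msgn1 were Smim3 (0.13), Hoxb8 (0.15) and Ccno (0.15). Hoxb8, a posterior Hox gene, had -0.73 and -0.51 beside the -0.82 and -0.37 of Msgn1.

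Markers of other cell types differed between the pools as well, and their part in the values of the members was not tested. The counts below stand against 6.55% of all genes that rose and 4.54% that fell. Of 10 visceral endoderm markers 4 rose and none fell, and their summed brightness at 4/5 somites was 21938 to 24150 in wild type and 29265 to 32114 in null. At 7/8 somites it was 14424 to 15037 and 15311 to 17094, and their median ratio was 0.39 and then 0.16. Of 7 genes listed as surface ectoderm markers, Krt5, Krt8, Krt18, Grhl2, Trp63, Wnt6 and Gata3, 6 rose and none fell. Whether they mark that tissue alone here was not tested. Their sums were 58441 to 68377 in wild type and 74351 to 82512 in null at 4/5 somites, and 59304 to 66461 and 87317 to 101179 at 7/8 somites. Of 5 measured node and notochord markers, tissue that also holds T, 2 fell and none rose, and Noto had no probe that passed the filter. Their sums were 1706 to 1840 in wild type and 1239 to 1298 in null at 4/5 somites, and 1730 to 1855 and 1216 to 1282 at 7/8 somites. Endothelial markers fell in 4 of 6, with sums of 3823 to 4062 in wild type and 3074 to 3359 in null at 4/5 somites, and 5291 to 6613 and 2997 to 3558 at 7/8 somites. Of the trophoblast markers 3 of 5 rose and 1 fell, of the gut endoderm markers 3 of 7 rose and 1 fell, of the allantois markers 2 of 4 rose, and of the primitive blood markers 1 of 4 fell.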

How the data were processed

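Messenger RNA of 4 pools (20 embryos each) was measured on 8 two-colour Agilent arrays on 2 slides. Each stage's 4 arrays carry the same 2 pools and were averaged to 1 replicate. Per the file headers, the deposited spot and background brightness are intensity values without normalization, the authors' processed intensity signals were background-subtracted, detrended and dye-normalized, the log ratio holds Cy5 against Cy3 as log10, and the flags are other values of 0 or 1. The scanner software was Agilent Feature Extraction, version 9.5.3 per the submitters' processing notes and 10.5.1.1 per the file headers. The deposited matrix equalled the scanner's log10 ratio, turned to null over wild type, at all 45018 spots of each of the 8 arrays (tolerance 1e-05), with column medians of 0.

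Mean signals were corrected with normexp (offset 50), with an array's median background at spots with uneven background, and normalized by loess in limma 3.58.1 (R 4.3.3). Control spots had weight 0, and 1184 outlier spots (0.341%) were dropped. Probes well above background on 3 of the 4 arrays of a stage in 1 genotype were kept (21907), and the brightest per gene was used. Log2 ratios, 1 mean per stage, were tested with lmFit and eBayes, two-sided, at an adjusted p of 0.05. Levels are channel values after loess and Aquantile. The script was tested on simulated data. Direction comes from the labelled genotype of each channel. Probe positions are mm9. The number of arrays limits the precision within a stage, and the number of pools, 1 per genotype and stage, limits the test.

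The members and lists were chosen with earlier results of these data known. All probes of members were named, with the 3 called genes that rose and fell most per list, and the 3 genes nearest to each member past 1.5-fold. Sequences come from RefSeq GRCm38.p6 and the deposited files. Alternatives varied the background, normalization, filter, probe rule, slide, dye and arrays.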

Additional observations from a re-analysis of the deposited data

Results flagged for a closer look

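For 3 genes all 4 arrays lay below 0 at 4/5 somites and all 4 above 0 at 7/8 somites, with a difference of 0.60 on the log2 scale for Mixl1, 0.53 for Tbx6 and 0.21 for Nkx1-2. Of all genes tested, 2.11% did so in that order. For Nkx1-2 this holds for its brightest probe, at -0.12 to -0.01 on the arrays of 4/5 somites. Its second probe had 0.0068 on array 1 of that stage, and a difference of 0.56 between the stages. The difference between the stages was not tested, since each stage has 1 pool per genotype. In none of the 18 sets of 4 arrays examined did 1 array stand apart from the other 3 by Dixon's criterion (0.829).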

How the results depend on the processing

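Over 22 alternatives no ratio over both stages changed sign. Of the stage values, run under 20, median centring turned T at 7/8 somites from -0.07 to 0.07, Evx1 at 7/8 somites from -0.0046 to 0.14 and the stage difference of Sox2 from -0.13 to 0.02. T at 7/8 somites was also 0.008 with the null in Cy5, and Evx1, near 0 there, was above it under 5 other alternatives by at most 0.03. The stage difference of the Mixl1 wild type level was -0.10 and 0.01 on slide 1. T lost its call in 17 (limma adjusted p 8.96e-11 to 0.462), Evx1 in 18 (1.58e-10 to 0.539) and Msgn1 in 3, without background subtraction (0.0702), with median centring (0.124) and with no filter on dim probes (0.0675); the causes were not tested.

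The members called, 3 in the report, were 0 without background subtraction, with median centring and with no filter, 1 with uneven backgrounds kept, with the scanner's processed signals, with the mean of probes, with every probe fitted, on slide 1 and in either dye order alone, 6 with slide as a replicate block, and 1 to 3 when an array was left out. Genes called, 1718 in the report, were 531 without background subtraction, 976 with uneven backgrounds kept, 467 with median centring, 768 with no filter, 1112 with the null in Cy3 and 9814 with slide as a replicate block, where the spread is technical. Leaving out an array gave 952 (7/8 somites, array 2) to 1588, with 1027 without array 4 of 7/8 and 1036 without array 2 of 4/5 somites. Calls on the 3 lists, 35 in the report, were 17, 23, 10, 17, 23 and 64 under those settings in that order, and 22 to 35 with an array left out, the lowest without array 2 and the next, 23, without array 4 of 7/8 somites.

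Genes at least 1.5-fold different at 4/5 somites, 355 in the report, were 232 with uneven backgrounds kept, 961 with processed signals and 587 with the null in Cy5, and at 7/8 somites, 404 in the report, 959 with processed signals. Members at least 1.5-fold lower at 4/5 somites, 3 in the report, were 2 with uneven backgrounds kept, with the null in Cy5 and with median centring. They were 4 with processed signals. Members below 0 on all 4 arrays at 4/5 somites, 6 in the report, were 3 with median centring and 5 with processed signals. Those with a higher ratio at 7/8 somites without overlap, 6 in the report, were 1 with median centring and 5 with uneven backgrounds kept. Replicate numbers pair arrays by slide and dye order and not by embryo. Each pool was made once, so differences between embryos of a genotype are not measured.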
